A study of Mus musculus with 18 samples.

Results

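The BCL2 family of apoptosis regulators was examined in ultraviolet-driven skin carcinogenesis in the mouse. Its members were taken as the genes of 10 named symbols, namely Bcl2, Bcl2l1, Bcl2l2, Mcl1, Bak1, Bid, Bik, Bmf, Bad and Bcl2l11. Of these 10, 9 were in the deposited expression table, and Bik was not analysed here. The table held 14521 genes with a symbol, and the 9 members were tested among all of them.

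RNA was sequenced from 3 tissues of each of 6 mice, which gave 18 libraries. The mice were female littermates of SKH-1E Hairless, an outbred strain that lacks a working Hairless gene and readily forms skin tumours under ultraviolet light. All 6 were chronically irradiated with a solar simulator, so that every group, the reference skin included, carries the same ultraviolet exposure and the same strain background. Chronically irradiated skin without a lesion (CHR, n = 6), a benign epidermal growth called a papilloma (PAP, n = 6) and an invasive squamous cell carcinoma of the skin (SCC, n = 6) were taken from each mouse after irradiation had stopped. Mice are named by their numbers in the labels, 2, 3, 7, 8, 9 and 10. No unirradiated skin was among the libraries, and lesions were bulk tissue that also held stroma and infiltrating cells.

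Proteins of this family decide whether a cell permeabilises the outer membrane of its mitochondria and dies by apoptosis. Pro-survival members (Bcl2, Bcl2l1 which encodes BCL-XL, Bcl2l2 which encodes BCL-W, and Mcl1) hold the pore-forming effectors BAK and BAX in check. BH3-only members (Bid, Bmf, Bad and Bcl2l11 which encodes BIM) sense stress and either occupy the pro-survival proteins or activate the effectors directly. In epidermis, this balance governs the removal of keratinocytes damaged by ultraviolet light and their loss of attachment to the matrix, a setting in which Bmf and Bcl2l11 are known to act.

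The libraries held between 15.4 and 20.96 M recovered reads, with a median of 18.9 M, and the fewest reads for any member in any library were the 18 reads of Bmf in the papilloma of mouse 10. Levels are given as normalised reads, that is, recovered reads divided by the library's size factor (0.834 to 1.18). Tissue make-up differed between the groups. All 18 of 18 listed skeletal muscle genes were lower in PAP than in CHR, and their summed level spanned 412100 to 620500 normalised reads in CHR, 385 to 31270 in PAP and 467 to 206400 in SCC. In PAP vs CHR, 7 of 8 fibroblast genes, 9 of 10 adipocyte genes, 8 of 8 sebaceous gland genes and 7 of 8 measured T cell genes were lower, whereas 10 of 13 keratinocyte genes and 7 of 7 proliferation genes were higher. The lesions of mouse 10 had the lowest summed muscle and fibroblast levels of their groups. None of the 13 keratinocyte genes was at 0 in any library. Their summed level spanned 448900 to 873500 normalised reads in CHR, 714200 to 1273000 in PAP and 259300 to 824100 in SCC. The lowest was the carcinoma of mouse 7. In bulk tissue, fewer cells of a type and less RNA per cell cannot be told apart, and the part of tissue make-up in the results below was not tested.

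Mcl1 was the most abundant member in every tissue. On the scale of normalised reads per kb of exon, where genes can be compared, Mcl1 averaged 2225 ± 424 (SD, n = 6) in skin, 1461 ± 102 in papillomas and 1677 ± 338 in carcinomas. Its lowest library lay above the highest library of the next member, Bak1, in all 3 groups. Bak1 followed with 327 ± 66.1 per kb in CHR, 425 ± 46.5 in PAP and 494 ± 155 in SCC. In PAP the ranges of Bak1 and the next member, Bcl2l1, did not overlap, whereas in CHR and SCC Bak1 overlapped with its neighbour in the order. Bcl2l1, Bcl2l2 and Bad formed a middle band between 155.8 and 242 per kb as group means, with overlapping neighbours in PAP and SCC, while Bcl2l2 and Bad were apart in CHR.

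The lower end of the order was taken by Bid, Bmf, Bcl2l11 and Bcl2. Bcl2 was lowest in CHR at 61.3 ± 5.75 per kb and in SCC at 40.1 ± 7.98, and Bmf was lowest in PAP at 26.7 ± 19.4. Neighbours in this stretch had overlapping ranges in every group, so that their order is not separated by the spread between mice. Bad and Bid, at the upper edge of this stretch, did not overlap in CHR, where Bad held 155.8 ± 15.1 and Bid 109 ± 17.7 per kb. Length was taken as the union of annotated exons, and a gene that uses few of its exons therefore appears lower than it was.

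**Figure D1:**
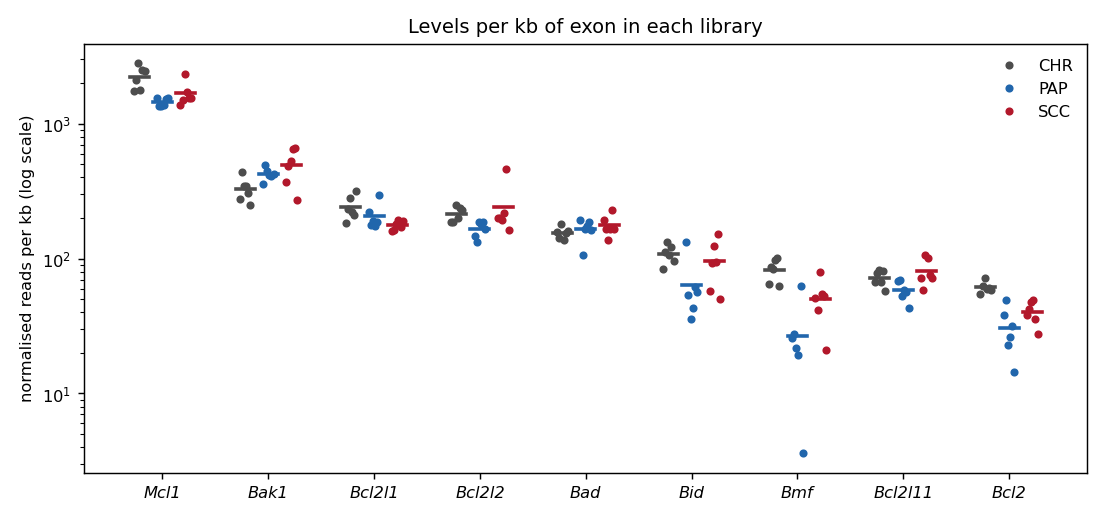
Normalised reads per kb of exon (log scale) for the 9 members, 1 point per library, with the mean of 6 libraries as a bar in each of CHR, PAP and SCC. Mcl1 stands apart at group means of 2225, 1461 and 1677 per kb, while Bmf falls to 3.59 per kb in 1 papilloma.

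The first comparison asked how the family differs between a papilloma and the irradiated skin of the same mouse. Papillomas held less mRNA for the pro-survival genes Bcl2 and Mcl1 and for the BH3-only genes Bmf and Bid. With the mouse as a block in limma, 4 of 9 members had an adjusted p under 0.05 and all 4 were lower in PAP, against 29.3% of all genes called lower and 23.3% called higher, or 52.6% called in either direction. For 3 of the 9 members (Bcl2, Mcl1 and Bmf) no papilloma reached the lowest irradiated skin, against 19.2% of all genes with such a gap in this direction and 33.6% in either. The median log2 difference was -0.34 over the members and 0.00 over all genes. The 4 of 9 members called do not exceed the share of all genes called, so that their number does not set the family apart.

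The 250 bases before 1 RefSeq start of each of the 3 genes whose groups did not overlap are shown because these genes fell together in PAP. They lie at chr1:106714291-106714540 (Bcl2, minus strand), chr3:95658471-95658720 (Mcl1, plus strand) and chr2:118549688-118549936 (Bmf, minus strand) in build GRCm38.p6, are given 5′ to 3′ on the strand of the gene, and the window of Bmf is 1 base shorter to stay outside the annotated exon. Capitals mark matches on either strand. They are the GC box, spelled GGGCGG, the box of NF-Y, spelled CCAAT, and the core bound by ETS factors, spelled CCGGAA, and no match overlaps another here. TGANTCA (AP-1) and TTTNGCGC (E2F) were searched as well. Bmf had 3 RefSeq starts, of which 1 is shown, and Bcl2 and Mcl1 had 1 each.
Bcl2: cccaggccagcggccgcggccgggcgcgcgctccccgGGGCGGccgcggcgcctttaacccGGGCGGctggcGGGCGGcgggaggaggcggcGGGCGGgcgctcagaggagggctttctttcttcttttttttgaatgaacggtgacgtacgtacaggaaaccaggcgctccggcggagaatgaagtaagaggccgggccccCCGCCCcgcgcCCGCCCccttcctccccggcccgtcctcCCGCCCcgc
Mcl1: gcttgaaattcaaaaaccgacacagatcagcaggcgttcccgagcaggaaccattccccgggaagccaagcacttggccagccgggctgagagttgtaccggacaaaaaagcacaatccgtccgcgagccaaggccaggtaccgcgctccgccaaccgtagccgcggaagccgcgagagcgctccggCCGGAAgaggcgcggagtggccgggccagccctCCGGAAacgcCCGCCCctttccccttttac
Bmf: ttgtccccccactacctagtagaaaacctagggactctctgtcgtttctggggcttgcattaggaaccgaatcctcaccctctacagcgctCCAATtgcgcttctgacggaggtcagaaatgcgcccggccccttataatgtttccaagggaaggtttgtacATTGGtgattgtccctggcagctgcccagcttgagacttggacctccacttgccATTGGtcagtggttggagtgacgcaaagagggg
Bcl2 had 7 GC boxes and a GC content of 74.8%, Mcl1 had 1 GC box and 2 ETS cores at 64.4% GC, and Bmf had 3 CCAAT matches at 54.0% GC. The 3 windows shared none of the motifs except the GC box of Bcl2 and Mcl1. Of 32851 promoter windows of this length, 32.7% held a GC box, 33.8% a CCAAT match, 12.0% an ETS core, 6.75% an AP-1 match and 1.13% an E2F match. A match is a description of the letters and not a bound site.

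Bcl2, on chromosome 1 (106538178 to 106714274, minus strand), encodes the founding pro-survival member. It held 496, 550.0 and 654 normalised reads in CHR (lowest, median and highest of 6), 131, 265 and 453 in PAP and 255, 369 and 451 in SCC. Every papilloma and every carcinoma lay below the lowest irradiated skin, which came from mouse 2. The papilloma of mouse 10 was lowest and that of mouse 3 highest. The log2 difference in PAP vs CHR was -0.91 ± 0.16 (SE, adjusted p = 0.0004749 in limma), lower in 6 of 6 mice, with a geometric mean ratio of 0.464 on normalised reads.

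Mcl1, on chromosome 3 (95658788 to 95663176, plus strand), encodes a short-lived pro-survival protein that binds BAK. It held 5936, 7774 and 9570 normalised reads in CHR, 4657, 4978 and 5350 in PAP and 4728, 5339 and 7970 in SCC. The papillomas were tightly grouped and all lay below the lowest skin, while the carcinoma of mouse 7 reached into the range of CHR. The log2 difference in PAP vs CHR was -0.58 ± 0.13 (SE, adjusted p = 0.001759 in limma), lower in 6 of 6 mice.

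Bcl2l1, on chromosome 2 (152780668 to 152831728, minus strand), held 848, 1051 and 1462 normalised reads in CHR, 802, 863 and 1356 in PAP and 734, 808 and 886 in SCC. Mouse 10 had the highest level in both skin and papilloma, and the groups overlapped. Its log2 difference in PAP vs CHR of -0.21 ± 0.11 did not pass the test (adjusted p = 0.1354 in limma), with 5 of 6 mice lower. Without mouse 2, the 1 mouse in which it was higher in the papilloma, the adjusted p was 0.04939, and it reached 0.3753 when another mouse was left out.

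Bcl2l2, on chromosome 14 (54883377 to 54888234, plus strand), held 831, 960.4 and 1120.0 normalised reads in CHR, 591, 778 and 839.5 in PAP and 723, 888 and 2076 in SCC. It was lower in the papilloma of 6 of 6 mice, but the ranges of CHR and PAP overlapped and the log2 difference of -0.34 ± 0.16 did not pass (adjusted p = 0.08965 in limma). The adjusted p was 0.01438 without the carcinoma of mouse 9, which stood apart at 2076, 0.02913 without any library of mouse 9 and 0.01261 in a fit of CHR and PAP alone. It was 0.1341 without the mouse as a block and up to 0.1924 when another mouse was left out.

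Bak1, on chromosome 17 (27019810 to 27029009, minus strand), encodes the pore-forming effector BAK. It held 607, 781 and 1057 normalised reads in CHR, 857, 1014 and 1194 in PAP and 651, 1222 and 1587 in SCC. Every papilloma was above the skin of its own mouse, although the skin of mouse 3 lay inside the range of the papillomas. The log2 difference in PAP vs CHR was 0.36 ± 0.15, and 6 of 6 mice were higher. Its adjusted p of 0.05347 in limma was just above the threshold, so that Bak1 was not called. It ranged from 0.06635 to 0.1127 when a whole mouse was left out and was 0.1003 without the mouse as a block. The adjusted p was 0.01481 in a fit of CHR and PAP alone, 0.02123 after quantile normalisation, 0.03304 without the carcinoma of mouse 9 and 0.02873 without that of mouse 10.

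**Figure D2:**
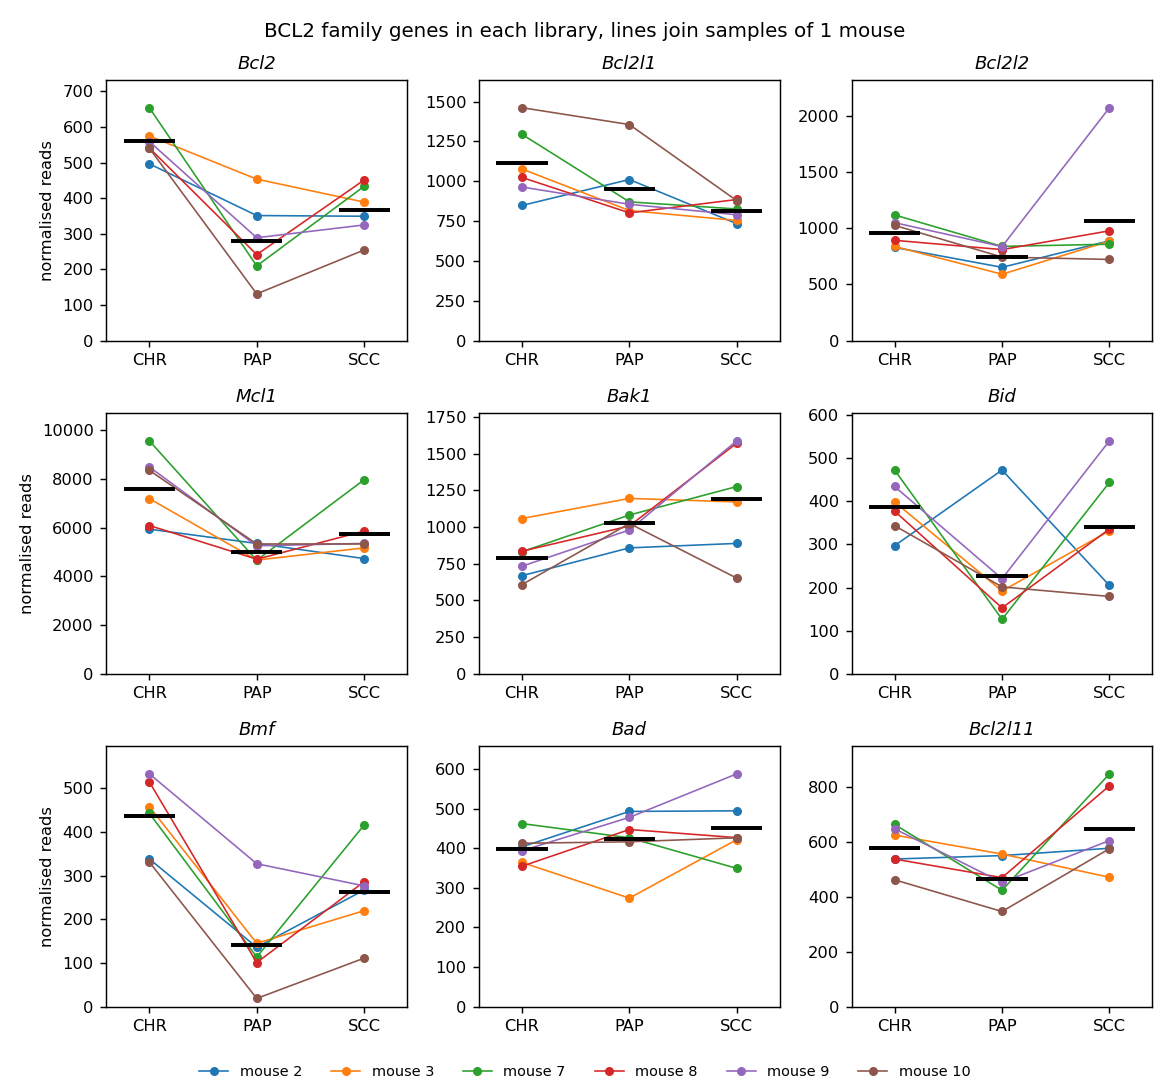
Normalised reads of the 9 members in CHR, PAP and SCC, with a line for each of 6 mice and the mean of 6 as a black bar. Bcl2, Mcl1 and Bmf drop in PAP in all 6 mice, Bak1 is higher in PAP in all 6, and the carcinoma of mouse 9 stands alone for Bcl2l2 at 2076.

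Bmf, on chromosome 2 (118528757 to 118549687, minus strand), encodes a BH3-only protein tied to the actin cytoskeleton. It had the largest fall among the members and held 331, 450.3 and 533 normalised reads in CHR, 18.9, 125 and 327 in PAP and 111, 272 and 416 in SCC. No papilloma reached the lowest skin, and the papilloma of mouse 10 stood far below the other 5, of which the lowest held 101. The log2 difference in PAP vs CHR was -1.43 ± 0.21 (SE, adjusted p = 9.508e-05 in limma), lower in 6 of 6 mice. Because the deposited scale compresses low levels, the geometric mean ratio on normalised reads was 0.247, with 0.614 in mouse 9 and 0.0570 in mouse 10 as its limits.

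Bid, on chromosome 6 (120891930 to 120916853, minus strand), encodes a BH3-only protein that caspase 8 cleaves. It held 297, 388 and 473 normalised reads in CHR, 126, 197 and 473 in PAP and 179, 334 and 541 in SCC. The papilloma of mouse 2 stood at the top of the CHR range, and the next highest papilloma held 221, below every skin sample. The log2 difference in PAP vs CHR was -0.69 ± 0.25 (SE, adjusted p = 0.03237 in limma), lower in 5 of 6 mice. This call was lost without mouse 3, 7, 8, 9 or 10 (adjusted p = 0.08749, 0.1115, 0.1006, 0.06843 and 0.05634), without the papilloma of mouse 3 (0.06519) and under quantile normalisation (0.1107), and the adjusted p was 0.001601 without mouse 2.

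Bad, on chromosome 19 (6941861 to 6951899, plus strand), encodes a BH3-only protein that survival kinases silence by phosphorylation. It held 355, 399 and 462 normalised reads in CHR, 274, 437 and 493.1 in PAP and 349, 427 and 588 in SCC. Its groups overlapped throughout, and its log2 difference in PAP vs CHR was 0.06 ± 0.12 (adjusted p = 0.6996 in limma). Bcl2l11, on chromosome 2 (128126038 to 128162547, plus strand), encodes BIM, which binds all the pro-survival proteins. It held 463, 582 and 664.5 normalised reads in CHR, 347, 462 and 556 in PAP and 472, 592 and 849 in SCC. Papillomas lay lower than skin in 5 of 6 mice with overlapping ranges, and the log2 difference of -0.28 ± 0.14 did not pass (adjusted p = 0.1026 in limma).

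The second comparison asked how a carcinoma differs from the papilloma of the same mouse. Bmf alone passed the test, 1 of 9 members, with a log2 difference of 0.78 ± 0.21 (SE, adjusted p = 0.03368 in limma) and a higher level in 5 of 6 mice. Of all genes 8.75% were called higher, 1.1% lower and 9.85% in either direction. For 0 of 9 members were the groups apart, against 0.413% of all genes, and 4 members had an unadjusted p under 0.05, as did 24.6% of all genes. The exception for Bmf was mouse 9, whose papilloma held the highest level of its group.

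The Bmf call did not hold under most other settings. Its adjusted p was 0.1148 without the mouse as a block, 0.0688 in limma-voom on recovered reads and 0.08732 with CHR left out. It was 0.06152, 0.08145, 0.1643 and 0.1506 without mouse 2, 3, 7 and 8, and 0.05775 without the papilloma of mouse 3. The direction was higher in SCC in all of these.

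The remaining members with an unadjusted p under 0.05 were Bcl2l11, Bcl2l2 and Bcl2. Bcl2l11 had a log2 difference of 0.40 ± 0.14 (adjusted p = 0.0788 in limma) and a higher level in the carcinoma of 5 of 6 mice. The carcinoma of mouse 7 held 2.0 times the level of its papilloma, and that of mouse 3 held 0.848 times. Bcl2l2 differed by 0.40 ± 0.16 (adjusted p = 0.1313) and Bcl2 by 0.37 ± 0.16 (adjusted p = 0.1796), with 5 and 4 of 6 mice higher. The difference of Bcl2l2 was 0.23 ± 0.11 without the carcinoma of mouse 9 (adjusted p = 0.1902). Bid differed by 0.47 ± 0.25 (adjusted p = 0.2673), and without the papilloma of mouse 2 by 0.74 ± 0.17 (adjusted p = 0.02135). Without that library the adjusted p of Bcl2l11 was 0.04871, and 3 members were called. This fit was chosen after seeing the data, and the share of all genes called in it is not given here. In every other setting 0 or 1 member was called.

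The third comparison asked how a carcinoma differs from the irradiated skin of the same mouse. Carcinomas held more Bak1 mRNA and less Bcl2, Bcl2l1, Mcl1 and Bmf mRNA, and each of these 5 had the same direction in 6 of 6 mice. Of all genes 38.4% were called, 15.8% higher and 22.7% lower. Only Bcl2, 1 of 9 members, had groups that did not overlap, against 11.2% of all genes in this direction and 19.7% in either. SCC vs CHR shares its skin libraries with PAP vs CHR, and its values stand beside those above as a separate reading of the same skin.

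Bak1 was higher in SCC by 0.51 ± 0.15 on the log2 scale (adjusted p = 0.01513 in limma), a geometric mean ratio of 1.47 on normalised reads. The ratio ran from 1.07 in mouse 10 to 2.17 in mouse 9, and the adjusted p was 0.05868 without mouse 8 and 0.06159 without mouse 9. Among the pro-survival genes, Bcl2 differed by -0.54 ± 0.16 (adjusted p = 0.01931), Bcl2l1 by -0.40 ± 0.11 (0.01352) and Mcl1 by -0.40 ± 0.13 (0.02228). Bcl2l1 stayed under the threshold in all of the alternative settings, with adjusted p values up to 0.04709. Bcl2 lost its call without mouse 9 (0.06367), and Mcl1 without mouse 3, 9 or 10 (0.06937, 0.08505 and 0.07827) and without the carcinoma of mouse 9 (0.05784) or mouse 10 (0.05593).

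Bmf was lower in SCC than in CHR by 0.65 ± 0.21 on the log2 scale (adjusted p = 0.02614 in limma), with a geometric mean ratio of 0.570. The call was lost without the block (0.08817), on log2 of normalised reads (0.09129), without mouse 3, 8 or 10 (0.08143, 0.06851 and 0.05852) and without the carcinoma of mouse 9 (0.07658). Bid differed by -0.22 ± 0.25 (adjusted p = 0.5134), Bad by 0.14 ± 0.12 (0.3583) and Bcl2l11 by 0.13 ± 0.14 (0.4855). Bcl2l2 differed by 0.07 ± 0.16 (adjusted p = 0.7693), and by -0.10 ± 0.11 without the carcinoma of mouse 9.

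**Figure D3:**
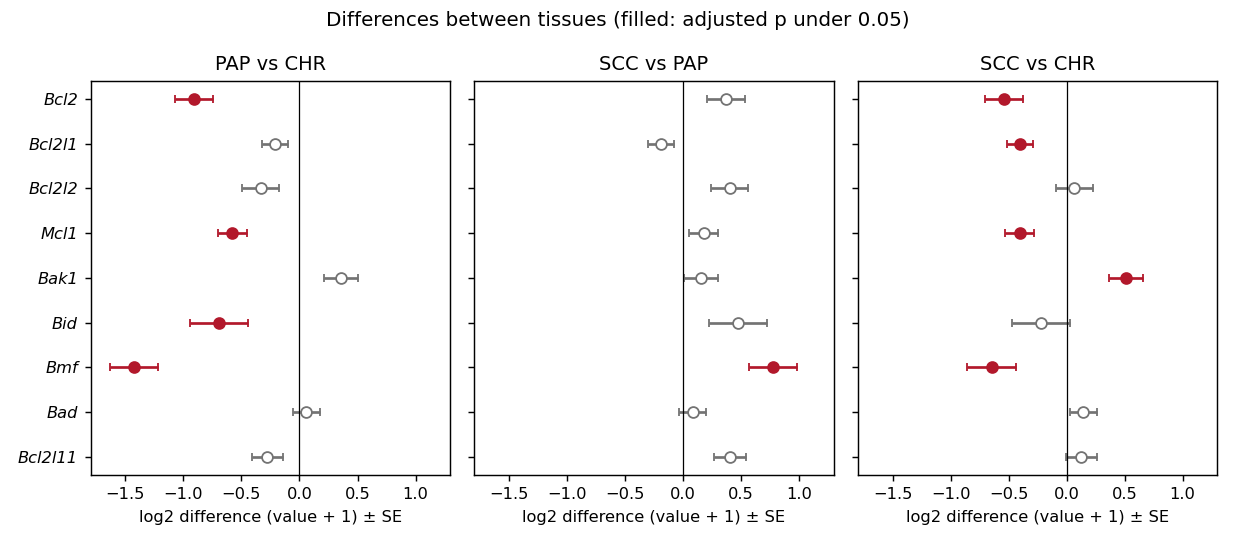
Log2 differences on the deposited scale (value + 1) with their SE from limma for PAP vs CHR, SCC vs PAP and SCC vs CHR, with filled points for an adjusted p under 0.05. Bcl2, Mcl1 and Bmf lie to the left of 0 in both comparisons with CHR, and Bak1 lies to the right, at 0.36 (not called) and 0.51.

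Members were also placed in the classes of a progression model, in which a gene that differs in SCC vs CHR is early when PAP vs CHR differs the same way, late when SCC vs PAP does, and stepwise when both do, each at an unadjusted p under 0.05. Bcl2, Mcl1 and Bmf were early and lower, and Bak1 was early and higher. These are 4 of 9 members, against 40.2% of all genes classed as early, 22.2% lower and 18% higher. None of the 9 was late or stepwise, classes that held 2.01% and 0.461% of all genes. Bcl2l1 differed in SCC vs CHR with neither step reaching the threshold, as did 4.57% of all genes. Bcl2 and Mcl1 were early in all of the settings run, while the classes of Bmf, Bak1, Bcl2l1 and Bad moved. Bmf had no class without the mouse as a block, on log2 of normalised reads and without mouse 3. Bak1 differed in SCC vs CHR with no class without the block and without mouse 2 or 7, and was stepwise without mouse 10. Bcl2l1 was early without mouse 2 and late without mouse 8, and Bad differed in SCC vs CHR with no class without mouse 7.

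The pro-survival genes were read as a sum per kb, of which Mcl1 made up 80.9 ± 1.58% (mean ± SD, n = 6) in CHR, 78.3 ± 1.16% in PAP and 78.4 ± 4.83% in SCC. Bcl2 contributed 2.27 ± 0.280% in CHR, 1.66 ± 0.724% in PAP and 1.89 ± 0.358% in SCC. Bcl2l1 contributed 8.88 ± 1.21% in skin, 11.1 ± 1.79% in papillomas and 8.42 ± 1.16% in carcinomas. Skin held a summed level of 2744 ± 487 per kb, papillomas 1866 ± 132 and carcinomas 2134 ± 347. These sums and the ratios that follow are descriptions with no test.

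Ratios within a library are free of the library's scaling. Bak1 over Mcl1 per kb averaged 0.152 ± 0.0428 in skin, 0.294 ± 0.0489 in papillomas and 0.298 ± 0.0940 in carcinomas, and it was higher than in the skin of the same mouse in 6 of 6 papillomas and 6 of 6 carcinomas. Papillomas ranged from 0.228 to 0.363 and skin from 0.103 to 0.209, without overlap, whereas carcinomas started at 0.173. Bcl2l11 over Bcl2 per kb averaged 1.18 ± 0.120 in skin, 2.09 ± 0.564 in papillomas and 2.04 ± 0.398 in carcinomas. It too was higher in 6 of 6 lesions of each kind, and no lesion reached down to the highest skin value of 1.32, since the lowest papilloma held 1.40 and the lowest carcinoma 1.39. Bmf over Bcl2 per kb went the other way in papillomas, lower than in skin in 5 of 6 mice, at 0.856 ± 0.594 against 1.36 ± 0.256. Bcl2l11 itself was not called against CHR, at log2 differences of -0.28 in PAP and 0.13 in SCC. Bcl2, the denominator of its ratio, was lower in both lesions without overlap. The share of gene pairs with such a gap is not given here.

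Genes of the same pathway outside the 9 members were examined by list, and their counts are to be read against the shares of all genes called, 23.3% higher and 29.3% lower in PAP vs CHR and 38.4% in either direction when carcinomas are set against skin. Of 14 other BCL2 family genes, 10 were measured, and in PAP vs CHR 4 were higher and 2 lower. Bnip3, a BH3-only gene of mitophagy, was higher by 1.47 ± 0.16 on the log2 scale (adjusted p = 9.629e-06 in limma), and Pmaip1, which encodes the Mcl1 antagonist NOXA, by 1.02 ± 0.19 (0.0007328). Bbc3, which encodes the p53 target PUMA, was lower by 0.40 ± 0.12 (0.01504), from 82.5 to 49.98 normalised reads. Bcl2l14 was lower by 0.60 ± 0.10 (0.0003219), from 28.5 to 7.67 normalised reads. These are low levels, which the deposited scale compresses. Bax, the other effector, differed by -0.06 ± 0.19 (adjusted p = 0.8267). In SCC vs CHR 2 of these 10 were higher (Pmaip1 by 1.13 ± 0.19 and Bnip3 by 1.02 ± 0.16) and Bcl2l14 was lower. Bcl2l13, the 1 gene of the list called in SCC vs PAP, was lower in the carcinoma by 0.63 ± 0.13 (adjusted p = 0.01521 in limma). It had been higher in PAP vs CHR by 0.67 ± 0.13 (0.001034), and in SCC vs CHR it differed by 0.04 ± 0.13 (0.845).

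Downstream of the mitochondria, 4 of 15 apoptosome and caspase genes were higher in PAP than in CHR and 3 were lower. Casp6, an executioner caspase, was higher by 0.81 ± 0.11 (adjusted p = 7.272e-05 in limma), and Casp9, the initiator caspase of the apoptosome, was lower by 0.67 ± 0.14 (0.001174). Of 7 measured genes for inhibitor of apoptosis proteins, 1 was higher and 3 were lower. The higher gene was Birc5, which encodes the mitotic protein survivin, at 1.66 ± 0.14 (adjusted p = 1.663e-06), and the largest fall was that of Naip2, an inflammasome sensor of immune cells, at -1.77 ± 0.20 (1.348e-05). Birc5 moved in the same direction as the 7 proliferation genes, and their part in its difference was not tested.

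Among 9 genes of the death receptor pathway, Tradd and Fadd, which encode adaptors, were higher in PAP and Cflar and Fas were lower. Cflar, which encodes the caspase 8 inhibitor c-FLIP, was lower by 0.69 ± 0.12 (adjusted p = 0.0004261 in limma), from 3408 to 2079 normalised reads. Of 8 partners at the mitochondrial and endoplasmic reticulum membranes, 1 was higher (Vdac1, an outer membrane channel, at 0.50 ± 0.12) and 2 were lower, led by Itpr1, a calcium channel that BCL2 binds, at -1.52 ± 0.21 (adjusted p = 5.812e-05). Of 4 genes for the turnover of MCL1 and BIM, Fbxw7, a ubiquitin ligase subunit for MCL1, was higher by 0.35 ± 0.13 (adjusted p = 0.03567), and the other 3 did not pass. In SCC vs PAP, 3 genes of these 6 lists were called, namely Bcl2l13, Naip2 at 1.02 ± 0.20 and Itpr1 at 0.84 ± 0.21. They were 1 of 10, 1 of 7 and 1 of 8 measured genes of their lists, against 9.85% of all genes called. The lists of 15, 9 and 4 genes had 0.

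The genes whose levels followed Bak1 and Bmf most closely over the 18 libraries were listed as a description. Bak1 went with Mlkl, the pore-forming protein of necroptosis, at a Pearson's r of 0.879, and with Pgs1 and Smg9 at 0.849 and 0.831. Bmf went with Slc8a1, Fgd2 and Il10ra at 0.974, 0.971 and 0.969. Il10ra, a cytokine receptor of leukocytes, averaged 1383 normalised reads in CHR, 349.9 in PAP and 873 in SCC. The libraries share tissue make-up and mice. T cell genes summed to 1147 to 2383 normalised reads in CHR, 255 to 626 in PAP and 417 to 1306 in SCC, with none of the 8 at 0 in any library. The papilloma of mouse 10 was lowest both for Bmf and for the muscle, adipocyte, sebaceous, fibroblast, T cell and endothelial sums. The highest T cell sum among papillomas was that of mouse 8, whose Bmf level of 101 was the second lowest. The lowest T cell sum among carcinomas was that of mouse 3, while Bmf was lowest in mouse 10. The myeloid sum was highest in the papilloma of mouse 9, as was Bmf, and lowest in that of mouse 3. Its median was 45750 normalised reads in CHR and 25790 in PAP, while the median log2 difference over the list was -2.45. A sum is weighted to its most abundant genes, so that this one does not stand for the whole list. Of 9 myeloid genes, 6 were lower and 2 higher in PAP vs CHR, and 6 were higher and 0 lower in SCC vs PAP. The 1 measured B cell gene was lowest in mouse 10 in every group, as was Bmf, at 2.1 to 18.8 normalised reads in PAP. The part of these cell types in the level of Bmf was not tested.

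Members on a chromosome whose genes shifted together in 1 lesion were read against that shift. For each library, the deviation of each of 11110 genes with at least 100 normalised reads on average from the median of its group was taken, and the median over the genes of a chromosome was compared. In CHR these chromosome medians lay between -0.04 and 0.06. They ranged from -0.54 to 0.40 in PAP, where 4 libraries had a chromosome beyond 0.2, and from -0.48 to 0.30 in SCC, where 3 did. DNA was not measured in these libraries, and copy number was not tested.

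In the papilloma of mouse 3, Bad deviated by -0.67 while the median of the other 384 genes on chromosome 19 was -0.54, with 88.3% of them below their group median. In the same library Bcl2l2 deviated by -0.39 and the other 386 genes on chromosome 14 by -0.46 at the median. In the papilloma of mouse 10, chromosome 2 had a median deviation of 0.40, and its 3 members did not move together. Bcl2l1 deviated by 0.65, whereas Bmf deviated by -2.66 and Bcl2l11 by -0.41. On chromosome 6 of that papilloma the median deviation was 0.26, and Bid deviated by 0.04. Bmf was thus lowest in a library in which 76.6% of the other genes on its chromosome were above their group median.

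Bcl2l2 in the carcinoma of mouse 9 deviated by 1.22, while the median of the other genes on chromosome 14 was 0.05. Within 1 Mb, 21 of 44 genes had their highest carcinoma level in that library, against 24.9% of all genes. This count includes Bcl2l2 itself, which was chosen for its high level there. The median deviation of the genes in the window other than Bcl2l2 was 0.21. Among the neighbours, Prmt5 held 2177 normalised reads there against 763 to 1067 in the other 5 carcinomas, and Ngdn 1199 against 558 to 676. Pabpn1, another neighbour, held 481 against 304.5 to 391. Bcl2l2 overlaps the protein-coding gene Gm20521 on the same strand. Bid overlaps Bcl2l13, Bak1 overlaps Ggnbp1 and Bad overlaps Gpr137 on the opposite strand, and without a stated strand setting the reads of such pairs cannot be told apart.

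**Figure D4:**
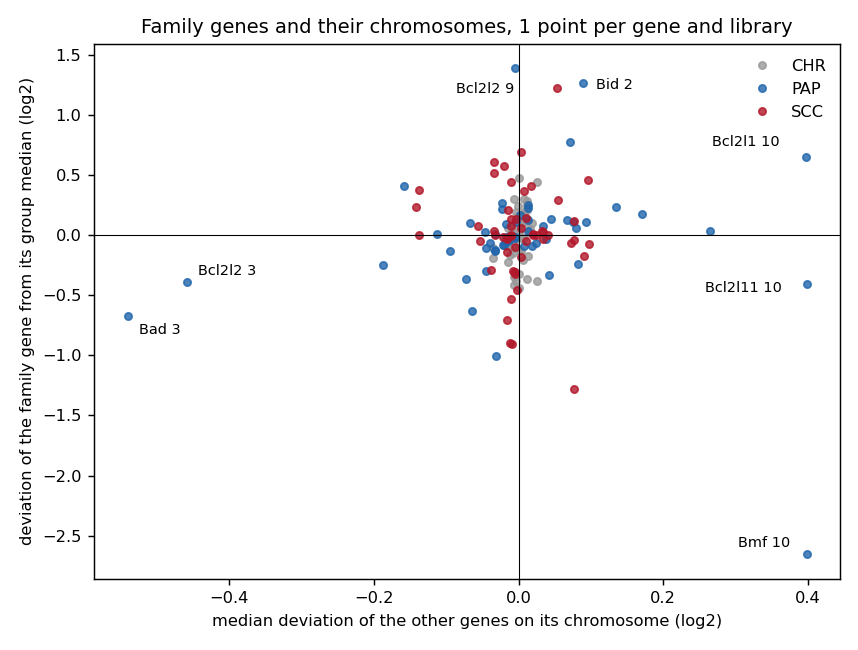
Deviation of each member from its group median (vertical, log2) against the median deviation of the other genes on its chromosome (horizontal, log2), 1 point per member and library, with labelled points named by gene and mouse. Bad and Bcl2l2 in the papilloma of mouse 3 lie low on both axes, while Bmf in the papilloma of mouse 10 lies at -2.66 on a chromosome at 0.40.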

How the data were processed

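For 18 mRNA libraries, the authors aligned reads to mouse build mm10 (the aligner is not given in the sources used here), used HTSeq to count genes, and a transformation that stabilizes variance. Their output was deposited as a score in whole numbers on a linear scale, in which 0 reads appear as 39. They are not counts, so no count model was the main test. Annotation release, strandedness of counting and tool versions are not given in the sources used here. The authors' methods mention a scaling of batch medians, and no batch label is given.

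Values were inverted to normalised reads, with a zero level of 39.13 and size factors from the steps between low values. A value was called whole when a whole number of reads, transformed forward and rounded, gave back exactly the deposited number, which held for 99.1% of all values and 100% of those under 100. Of 14542 entries, 21 had no symbol (at most 0.236% of a library) and were left out. Coordinates are those of GENCODE M21, and promoters those of RefSeq (GRCm38.p6).

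limma 3.58.1 (R 4.3.3) was fitted to log2(value + 1) of 14521 genes with group and mouse, with a pseudocount of 1, two-sided, Benjamini-Hochberg adjusted, at a threshold of 0.05, and was tested on simulated data. Mouse numbers pair the libraries because each mouse gave all 3 tissues. Within a mouse, deviations from the group means correlated between -0.245 and 0.507. With the mouse as a block, p-values set a difference between tissues against the residual variation left among 6 littermates. This error is pooled over the 3 groups and moderated by limma, with 1 library per tissue and mouse. A comparison of 2 groups therefore also carries the scatter of the third. No pair of libraries was a copy (at most 2.24% equal values). The named genes are all members, the up to 2 largest rises and 2 largest falls of each list in each comparison, and 3 genes most like Bak1 and Bmf. Bax, which did not pass the test, was named in addition. Prmt5, Ngdn and Pabpn1 were named after their values were seen. The members and lists were chosen with earlier results of these data known. The protein sequences were not analysed here.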

Additional observations from a re-analysis of the deposited data

Results flagged for a closer look

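Of 27 sets of 6 libraries (9 members in 3 groups), 2 held a library far from the others by Dixon's gap ratio, which chance gives in about 1 in 20 sets. Bcl2l2 in the carcinoma of mouse 9 held 2076 normalised reads against 978 in the next carcinoma, and the gap was 0.720 of the range (critical value 0.625). Bad in the papilloma of mouse 3 held 274 normalised reads, and the next papilloma held 416, a gap of 0.704 of the range.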

How the results depend on the processing

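Over the 9 members in 3 comparisons, 413 of the values recomputed under the alternative settings kept their direction and their side of the threshold, 32 kept their direction but lost the call, 11 kept it and gained one, and 3 reversed. The 3 were Bad in SCC vs PAP without mouse 3, where leaving out each mouse in turn gave -0.002 to 0.149, and Bcl2l2 in SCC vs CHR without mouse 9, where it gave -0.107 to 0.172, and without the carcinoma of mouse 9 (-0.104). None of these was called. Only members called in the main test could lose a call. Those were 4 in PAP vs CHR, 1 in SCC vs PAP and 5 in SCC vs CHR. All 32 losses were theirs, whereas the 413 include values of members that were not called to begin with. The 4 settings that left out the papilloma of mouse 2 or 3 or the carcinoma of mouse 9 or 10 were chosen after seeing the data.

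In PAP vs CHR, 3 to 5 members were called when each mouse was left out in turn, and 6 in a fit of these 2 groups with the replicate block. Bcl2, Mcl1 and Bmf were called in every setting. In SCC vs PAP, 0 members were called without the replicate block (3 with an unadjusted p under 0.05), with 2 groups only (2), in limma-voom on recovered reads (3), on log2 of normalised reads plus 1 (4), after quantile normalisation (3) and in limma-voom scaled without muscle, fat and sebaceous genes (3). Leaving out a mouse gave 0 to 1, and 3 were called without the papilloma of mouse 2 and 0 without that of mouse 3. In SCC vs CHR, leaving out a mouse gave 2 to 5 members, 3 were called without the carcinoma of mouse 9, and 4 without the replicate block. Without the block, 2 members were early in place of 4, and leaving out a mouse gave 3 to 4. Per kb of the longest coding transcript, Mcl1 made up 74.3% (CHR), 70.8% (PAP) and 71.9% (SCC) of the pro-survival sum. The cause of these changes was not tested.

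Quantile normalisation moved the median of all genes by 0.16 in PAP vs CHR. Relative to it, Bak1 was higher and Bcl2, Mcl1 and Bmf were lower. Weak genes are limited by the compressed scale, on which differences are understated, and depth bounds Bmf most, with 18 reads in 1 papilloma. A mean of at least 10 reads changed no call. All values are of bulk RNA from littermates of 1 strain.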
